A study of Mus musculus with 8 samples.

Results

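The genes described here are the cytochrome P450 genes of the mouse kidney outside the Cyp1 and Cyp4a subfamilies and outside Cyp4b1, Cyp24a1, Cyp27b1 and Cyp51. They were defined by name and abundance, with earlier results of these data known. Members are protein-coding genes whose symbol is Cyp, a number, a subfamily letter (or letters, in Cyp2ab1) and a number. They have at least 10 counts in total over 8 libraries. Of 94 such symbols 11 were among those left out, 8 had 0 counts in every library and 16 had fewer than 10 counts, which left 59 members among the 19818 genes of the series with at least 10 counts. Of the 59 members, 29 passed the edgeR filter on low counts and were tested; the other 30 are given as counts only.

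RNA came from whole kidneys of 8 adult male mice, 4 labelled CDH11+/+ (wild type for cadherin-11, a cell adhesion protein of mesenchymal cells) and 4 labelled CDH11-/- (null for it). Their strain background was mixed, 129S1/Sv x C57BL/6. All 8, controls included, had received aristolochic acid (a toxin of plants that injures the proximal tubule) at 3 mg/kg in 5 daily injections, and were killed 2 weeks after the last one. There were no uninjured mice, and the labels name neither litters nor how the null allele was made. The series title speaks of Unx/AngII injury instead; labels and design text were followed.

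Cytochromes P450 are heme enzymes that insert an oxygen atom into their substrates, with electrons passed on by cytochrome P450 reductase in the endoplasmic reticulum and by ferredoxin in mitochondria. Families are known for their substrates: Cyp2c and Cyp2j enzymes turn arachidonic acid into epoxides that act on vessels and tubules, several Cyp2 and Cyp3a enzymes oxidise drugs and steroids, Cyp4 enzymes hydroxylate fatty acids, and other families serve sterol, bile acid, steroid hormone and retinoic acid metabolism. In the kidney most of these enzymes sit in the proximal tubule, and the liver holds far more of many of them.

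The heme iron is bound by a cysteine in a signature that the members share (phenylalanine, glycine, arginine, cysteine and glycine at fixed spacing). It was found in the longest reading frame of the GENCODE transcripts of 53 of the 59 members, and in 25 of the 29 tested. The coding windows of 30 bases are shown for the members on which the comparisons turn, with the cysteine codon in capitals, to show how alike the transcripts are that had to be told apart.
Cyp2j13: ttttcaatgggaaagcgagctTGCctcgga
Cyp2j6: ttctcaatgggaaagcgagctTGCctggga
Cyp2j5: ttctcaatgggaaaaagagctTGTcttgga
Cyp2e1: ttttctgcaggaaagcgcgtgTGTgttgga
Cyp2d12: ttttcagcaggccgcagatcaTGCctgggg
Cyp2d9: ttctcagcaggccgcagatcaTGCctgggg
Cyp26b1: tttggcggtggcgtgcggaccTGCctgggc
Cyp2j13 matched Cyp2j6 at 28 of these 30 bases and Cyp2j5 at 25. Cyp2d12 matched Cyp2d9 at 29, and Cyp2a4 and Cyp2a5 (not shown) were identical at all 30. Over whole transcripts the families were further apart. Of the 29 tested members, 21 shared under 5% of their 50-base stretches with any other gene, among them Cyp2j13 (0.139%), Cyp2j5 (0.174%) and Cyp2j6 (0.422%). Cyp2a5 (40.8%), Cyp2a4 (38.0%), Cyp2d9 (29.04%) and Cyp4f16 (26.5%) shared over 20%, and Cyp2d12 shared 17.9%, so the split of reads between these and their relatives is uncertain.

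Libraries held 10675309 to 18539479 counts, and the members took 0.0786% to 0.166% of them. Cdh11 itself stood at 75.6, 58.0, 61.7 and 59.0 CPM (counts scaled to library size by TMM) in the libraries labelled CDH11+/+ and at 89.9, 91.3, 112.5 and 117.2 CPM in those labelled CDH11-/-. Its level was thus not lower under the CDH11-/- label (log2 fold change 0.69 ± 0.11, SE; edgeR adjusted p = 0.0243), and it was positive in all 20 alternative settings (0.24 to 0.84), past the threshold in 12 of them. The labels do not say which exons the allele lacks, and a count over the whole gene includes reads outside a deleted part, so this count does not settle the label. Directions below are therefore those of the libraries as labelled. The members tended to be high or low together in a library (replicate numbers only name libraries). Under the CDH11+/+ label, replicate 1 was lowest for 18 of the 29 tested members and replicate 2 highest for 15. Under the CDH11-/- label, replicate 4 was lowest for 17 and replicate 2 highest for 15. The summed level of 27 proximal tubule genes was 5595, 14251, 12716 and 10214 CPM in CDH11+/+ replicates 1 to 4 and 6011, 9989, 6542 and 4548 CPM in CDH11-/- replicates 1 to 4. Of these 27 genes 26 had a negative log2 fold change (median -0.69), and 0 passed the threshold. Endothelial, fibroblast and macrophage lists leaned the other way, also with 0 calls. Positive were 12 of 12 endothelial genes (median 0.32), 10 of 12 fibroblast and pericyte genes (median 0.32) and 11 of 12 macrophage genes (median 0.13). The distal nephron and collecting duct list leaned down, with 8 of 13 genes negative (median -0.11) and 0 calls. At an unadjusted edgeR p under 0.05 were 19 of the 27 proximal tubule genes and 9 of 12 endothelial genes. So were 6 of 12 fibroblast and pericyte, 1 of 12 macrophage and 2 of 13 distal genes, beside 14.1% of all genes. A separate list for the S3 segment of the proximal tubule had 11 of 12 genes negative (median -0.38), with 0 calls and 0 at such a p. With 1 surrogate variable 10 of its 12 genes were positive, as were 7 of 12 without CDH11+/+ replicate 3. In whole kidney, fewer cells of a type and less RNA per cell cannot be told apart.

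Across all genes, the edgeR quasi-likelihood test called 114 of 15852 genes (0.719%) at an adjusted p under 0.05: 0.347% lower and 0.372% higher in the CDH11-/- libraries. Of the 29 tested members 1, Cyp2j13, was called lower and 0 were called higher. At an unadjusted p under 0.05, 6 members were lower (Cyp2j13, Cyp2j6, Cyp2j5, Cyp2e1, Cyp2d12 and Cyp39a1), where 7.46% of all genes were, and 2 were higher (Cyp26b1 and Cyp3a13), where 6.62% were. DESeq2 called 3 members lower and 1 higher (1.81% and 1.56% of all genes), edgeR with 1 surrogate variable 3 and 1 (2.67% and 2.14%), and limma-voom 2 lower (2.16%). The median log2 fold change of the tested members was -0.086, beside -0.0080 over all genes, with 17 negative and 12 positive. The part of these cell type levels in the counts was not tested. Without CDH11+/+ replicate 1, edgeR called 4 members lower (Cyp2j13, Cyp2j6, Cyp2j5 and Cyp2d12) where 3.17% of all genes were called lower. Without CDH11-/- replicate 2 it called 1 lower (0.219% of all genes). Without any other single library it called 0, where 0.081% to 0.28% of all genes were called lower.

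**Figure D1:**
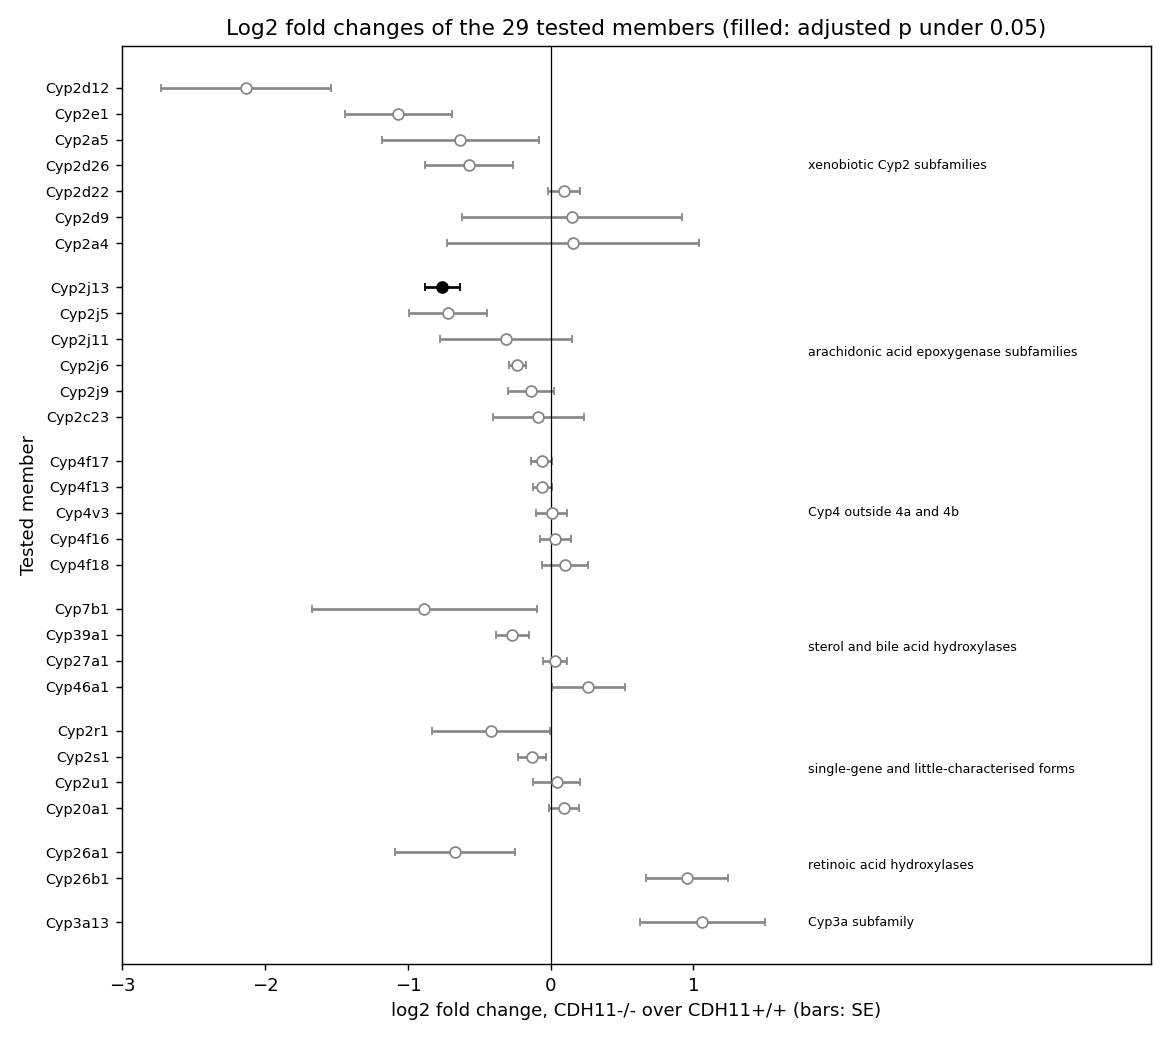
Log2 fold change (x axis, CDH11-/- over CDH11+/+; bars are SE) of the 29 tested members, grouped by role on the y axis; a filled point has an edgeR adjusted p under 0.05. The single filled point is Cyp2j13 at -0.76; the Cyp4 members lie close to 0, and Cyp2d12 lies farthest below it at -2.13.

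The summed level of all 59 members was 899, 1754, 1468 and 1357 CPM in the CDH11+/+ libraries and 913, 1361, 934 and 772 CPM in the CDH11-/- libraries. The groups overlapped through CDH11+/+ replicate 1 and CDH11-/- replicate 2. The sums averaged 1370 ± 355 and 995 ± 254 CPM (SD over 4 libraries), and the log2 ratio of -0.46 did not pass a two-sided exact permutation test (p = 0.2; the smallest p that 4 against 4 can give is 0.0286). Cyp2j5 alone made 24.2% to 31.2% of that sum.

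Per kilobase of exon, the scale on which members can be set beside each other, Cyp2j5 was the most abundant at a mean of 139 CPM per kb, followed by Cyp2e1 (77.2), Cyp2a4 (40.5), Cyp7b1 (26.5), Cyp27a1 (24.4) and Cyp2d26 (24.2). Spread between mice differed greatly among them. The coefficient of variation of the tested members had a median of 21.5% in CDH11+/+ and 23.1% in CDH11-/- libraries, beside 10.8% and 9.79% over all genes. In each label 5 of the 29 members (17.2%) varied by over 50%, where 3.23% and 2.63% of all genes did. Cyp2a4, Cyp7b1, Cyp2d9 and Cyp2a5 did so under both labels, and Cyp4f13, at 2.80% and 3.04%, varied least.

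**Figure D2:**
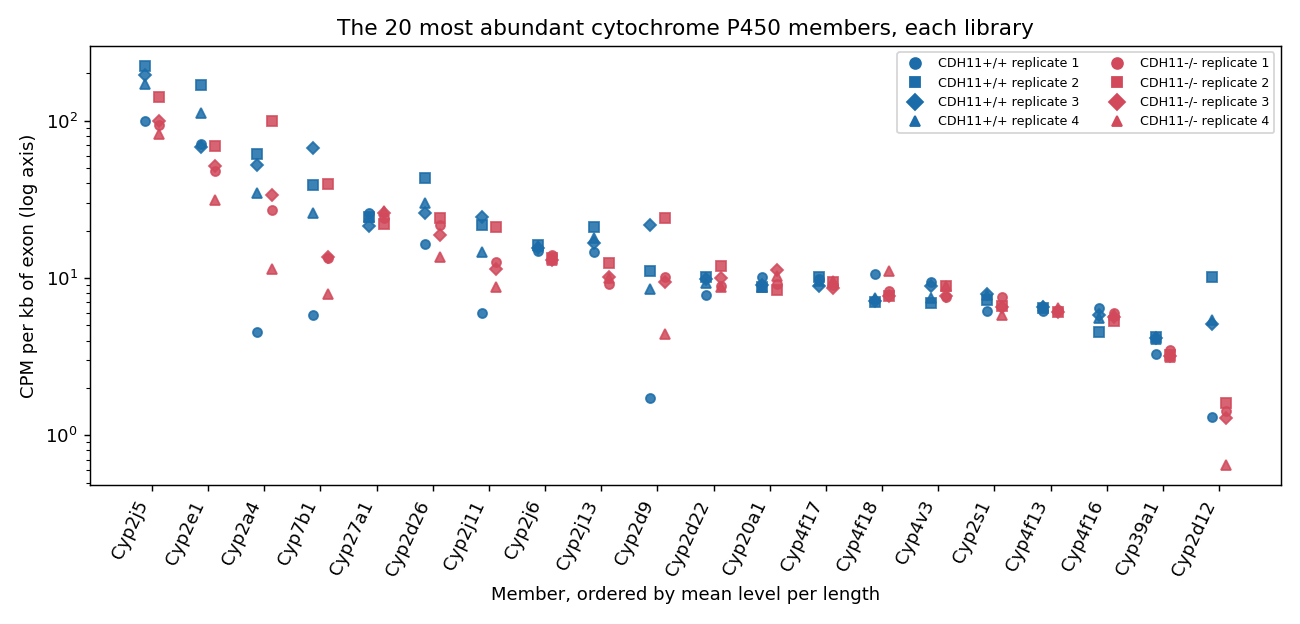
Level per exon length (CPM per kb, log axis) of the 20 most abundant members in each of the 8 libraries (blue circles to triangles, CDH11+/+ replicates 1 to 4; red, CDH11-/- replicates 1 to 4). Points of Cyp27a1 or Cyp4f13 nearly coincide, while those of Cyp2a4, Cyp7b1, Cyp2d9 and Cyp2d12 spread over several-fold ranges.

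The epoxygenase subfamilies held the single call. Of 18 Cyp2c and Cyp2j members 6 were tested, all 6 had a negative log2 fold change (median -0.27; 52.2% of all tested genes were negative), and 3 had an unadjusted p under 0.05. All 6 stayed negative under every other scaling of the counts, 4 of 6 with 1 surrogate variable, and 5 of 6 without CDH11-/- replicate 3 or replicate 4. The 5 tested Cyp2j genes are neighbours on the minus strand of chromosome 4 (mm10), between 96027534 at the end of Cyp2j13 and 96664154 at the start of Cyp2j5.

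Cyp2j13 (chr4:96027534-96077546, ENSMUSG00000028571), an enzyme of the Cyp2j subfamily, fell in the CDH11-/- libraries. Its level was 68.2, 99.6, 78.2 and 84.4 CPM in the CDH11+/+ libraries and 42.9, 58.1, 47.5 and 47.0 CPM in the CDH11-/- libraries. The groups did not overlap: the highest CDH11-/- library, replicate 2, lay below the lowest CDH11+/+ library, replicate 1. It averaged 82.6 ± 13.2 and 48.9 ± 6.46 CPM (SD over 4 libraries), with a log2 fold change of -0.76 ± 0.12 (SE) and an edgeR adjusted p of 0.0275. On the authors' normalized values, limma gave -0.74 with an adjusted p of 0.0452. Non-overlap downward was seen for 2 tested members (Cyp2j13 and Cyp2j6) and 3.74% of all tested genes, and upward for 0 tested members and 3.59%. Outside the tested members, Cyp3a11 was higher without overlap at very low counts (0, 1, 0 and 1 against 3, 25, 4 and 2). Over 20 alternatives the log2 fold change of Cyp2j13 ran from -0.93 to -0.65 and passed the threshold in 14. The call was lost without CDH11+/+ replicate 2, 3 or 4 (edgeR adjusted p = 0.0529, 0.0526 and 0.109) and without CDH11-/- replicate 1, 3 or 4 (0.0909, 0.0882 and 0.0832), which leave 3 libraries under a label. It held at -0.83 without CDH11+/+ replicate 1 and at -0.85 without CDH11-/- replicate 2 (edgeR adjusted p = 0.0151). A pseudogene, Hspe1-ps6, overlaps its gene model on the same strand.

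**Figure D3:**
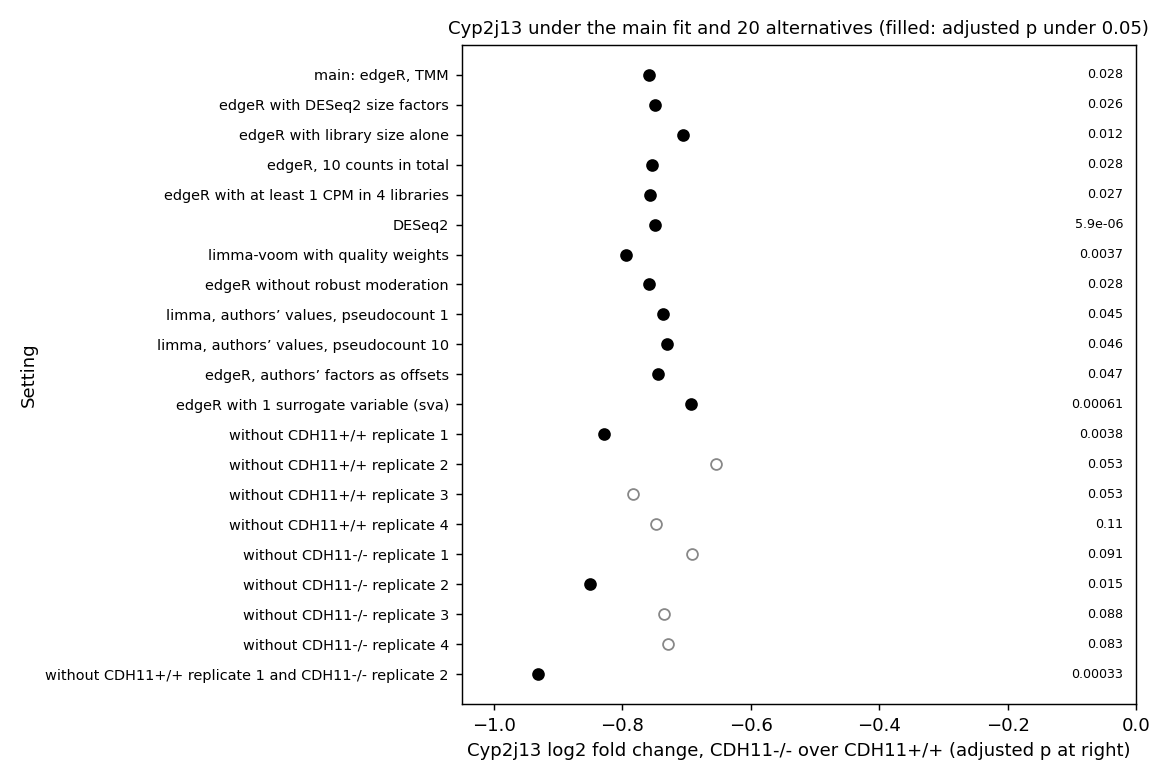
Log2 fold change of Cyp2j13 (x axis, CDH11-/- over CDH11+/+) in the main edgeR fit and 20 alternatives (y axis), with the adjusted p at the right; filled points have an adjusted p under 0.05. All lie between -0.93 and -0.65, and the 6 open points each leave out 1 library.

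Cyp2j6, a widely expressed member of the subfamily, differed little but with little spread. It stood at 53.2, 58.2, 56.2 and 57.8 CPM in the CDH11+/+ libraries and at 50.4, 48.0, 46.6 and 46.7 CPM in the CDH11-/- libraries. The groups did not overlap, yet the difference missed the threshold (log2 fold change -0.23 ± 0.060; edgeR adjusted p = 0.108). DESeq2 (adjusted p = 0.0447), limma-voom (0.0265), edgeR with a surrogate variable (0.0448) and edgeR without CDH11+/+ replicate 1 (0.0391) called it.

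Cyp2j5, an abundant arachidonic acid epoxygenase of the mouse proximal tubule, stood at 234.9, 522.9, 458.4 and 402.4 CPM against 221.2, 333.1, 235.0 and 193.6 CPM. CDH11+/+ replicate 1 lay among the CDH11-/- libraries. The log2 fold change was -0.72 ± 0.27 (edgeR adjusted p = 0.302), and -0.90 without CDH11+/+ replicate 1, where it passed (edgeR adjusted p = 0.0455). The other tested members of the group were Cyp2j11 (log2 fold change -0.31 ± 0.46), Cyp2j9 (-0.14 ± 0.16) and Cyp2c23 (-0.086 ± 0.32), an epoxygenase of the kidney that here had a mean of only 1.92 and 1.81 CPM; their edgeR adjusted p ran from 0.754 to 0.933. Cyp2j11 was lowest in CDH11+/+ replicate 1 (11.5 CPM), the same library that was lowest for Cyp2j5, Cyp2j13 and Cyp2j9 within its label.

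**Figure D4:**
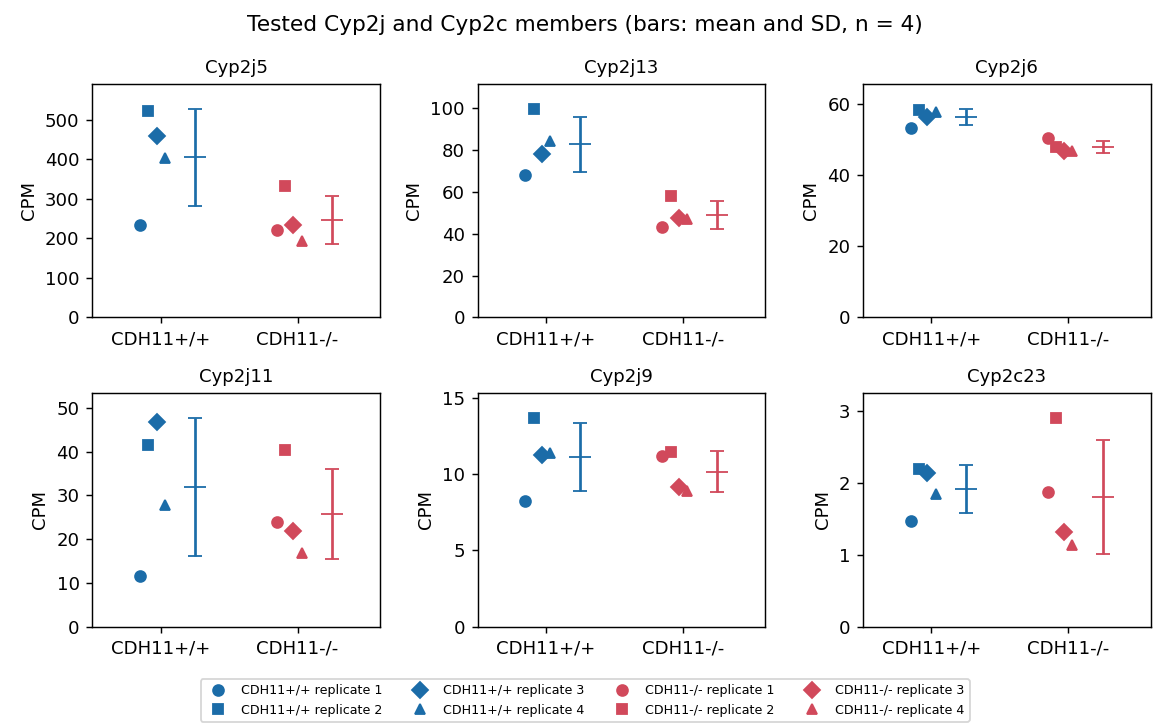
Level (CPM, y axis from 0) of the 6 tested Cyp2j and Cyp2c members in each library by label; bars are mean and SD, n = 4. Cyp2j13 and Cyp2j6 separate by label. Cyp2j5 overlaps through CDH11+/+ replicate 1 (circle), and Cyp2j11 through that library and CDH11-/- replicate 2 (square).

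Among the partners of these enzymes, 0 of 19 tested genes of epoxide hydrolysis and eicosanoid synthesis passed the threshold (median 0.038; 7 negative and 12 positive). Ephx2, the soluble epoxide hydrolase that clears the epoxides, averaged 101.4 ± 28.6 and 68.6 ± 18.8 CPM (log2 fold change -0.57 ± 0.27; edgeR adjusted p = 0.411). Ptgis, prostacyclin synthase and itself a P450 enzyme by structure, averaged 8.93 ± 1.16 and 12.3 ± 1.47 CPM (0.47 ± 0.13; edgeR adjusted p = 0.151). It passed without CDH11+/+ replicate 1 (0.0388).

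The Cyp2 subfamilies known for drugs, solvents and steroids held 12 members, 7 of them tested, with 4 negative and 3 positive log2 fold changes (median -0.57) and 0 calls. Cyp2e1, which oxidises ethanol and small solvents, stood at 152.7, 364.0, 145.9 and 240.0 CPM against 102.9, 148.3, 111.8 and 67.6 CPM. A single CDH11-/- library, replicate 2, reached above the lowest CDH11+/+ library. The log2 fold change was -1.07 ± 0.37 (edgeR adjusted p = 0.283), and it passed in 0 of 20 alternatives.

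Cyp2d12, of a subfamily that hydroxylates drugs and steroids, had the lowest log2 fold change of the members. It stood at 5.07, 39.2, 19.7 and 20.97 CPM against 5.57, 6.21, 5.01 and 2.50 CPM. All 4 CDH11-/- libraries lay far below 3 of the CDH11+/+ libraries, and CDH11+/+ replicate 1 lay among them. The log2 fold change was -2.13 ± 0.60 (edgeR adjusted p = 0.196), and it passed with DESeq2 (adjusted p = 0.0188) and without CDH11+/+ replicate 1 (-2.44; edgeR adjusted p = 0.0166).

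Cyp2d9, a steroid hydroxylase of male mice, stood at 4.61, 29.3, 57.9 and 22.6 CPM against 26.9, 63.5, 25.1 and 11.7 CPM, and Cyp2a4, also a steroid hydroxylase, at 7.94, 107.3, 90.8 and 59.99 CPM against 47.1, 171.8, 58.3 and 19.7 CPM. Both were lowest in CDH11+/+ replicate 1 and highest of all in CDH11-/- replicate 2. Their log2 fold changes of 0.15 ± 0.77 and 0.15 ± 0.88 (edgeR adjusted p = 0.953 and 0.957) turned to -0.43 and -0.67 without CDH11-/- replicate 2, and to -0.19 and -0.20 without CDH11+/+ replicate 1. With 1 surrogate variable Cyp2d9 passed upward at 0.89 (edgeR adjusted p = 0.0180). Cyp2d26 had the same order as Cyp2d12, with CDH11+/+ replicate 1 among the CDH11-/- libraries and the other 3 above them, and averaged 51.9 ± 19.9 and 35.0 ± 8.07 CPM (-0.57 ± 0.31; edgeR adjusted p = 0.459). Cyp2d22 averaged 36.2 ± 4.08 and 38.6 ± 5.63 CPM, with a log2 fold change of 0.095 ± 0.11 and a nominal 95% interval of -0.18 to 0.37.

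The tested Cyp4 members outside the 4a and 4b subfamilies, hydroxylases of fatty acids and leukotrienes, moved least. Cyp4f15, untested at its low counts, is given with the untested members below. Of 10 members 5 were tested; their log2 fold changes ran from -0.064 to 0.10 and 0 passed. Cyp4f13 stood at 27.5, 28.8, 29.03 and 29.3 CPM against 27.6, 26.9, 26.97 and 28.7 CPM, a log2 fold change of -0.058 ± 0.067 with a nominal 95% interval of -0.22 to 0.10. Intervals were similar for Cyp4f17 (-0.24 to 0.12), Cyp4f16 (-0.23 to 0.30) and Cyp4v3 (-0.25 to 0.27). Cyp4f18, a leukotriene hydroxylase of neutrophils, was high in 1 library of each label: 19.7 CPM in CDH11+/+ replicate 1, with 13.1 to 13.9 in the other 3, and 20.5 CPM in CDH11-/- replicate 4, with 14.2 to 15.2 in the other 3. The summed level of 12 neutrophil genes was also highest in those libraries within each label (288.5 and 209.6 CPM, with 142.9 to 191.0 in the other 6). That sum rests on few genes: 4 of the 12 were tested, and 3 had a CDH11+/+ median over 1 CPM. Ly6g was at 0 in all CDH11+/+ libraries and at most 0.158 CPM elsewhere. Whether the sum reflects neutrophils, and its part in the Cyp4f18 level, was not tested.

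Of 6 sterol and bile acid hydroxylases 4 were tested, with 0 calls. Cyp27a1, the mitochondrial sterol hydroxylase of bile acid synthesis, held at 56.7, 53.1, 46.4 and 53.4 CPM against 52.5, 47.8, 56.1 and 57.6 CPM (log2 fold change 0.030 ± 0.081, nominal 95% interval -0.17 to 0.23). Cyp39a1, an oxysterol hydroxylase, stood at 9.96, 12.8, 12.7 and 12.5 CPM against 10.7, 9.96, 9.71 and 9.54 CPM. CDH11+/+ replicate 1 again lay among the CDH11-/- libraries, and the log2 fold change was -0.27 ± 0.12 (edgeR adjusted p = 0.330). Cyp7b1, another oxysterol hydroxylase, ranged more than any of these: 12.6, 84.5, 144.4 and 56.1 CPM against 29.01, 85.7, 29.6 and 17.2 CPM. Its log2 fold change of -0.88 ± 0.79 did not pass (edgeR adjusted p = 0.682).

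Both retinoic acid hydroxylases were tested and pointed in opposite directions. Cyp26b1, which degrades retinoic acid, stood at 4.89, 2.28, 4.59 and 5.01 CPM against 8.93, 9.76, 4.65 and 9.24 CPM. Of the CDH11-/- libraries 3 lay above all CDH11+/+ libraries, and replicate 3 lay among them. The log2 fold change was 0.95 ± 0.29 (edgeR adjusted p = 0.180; DESeq2 adjusted p = 0.0357). Cyp26a1, at means of 0.918 and 0.562 CPM, had a log2 fold change of -0.67 ± 0.42. Of 15 tested genes of retinoid metabolism 0 passed (median -0.0077). The smallest p was that of Rdh10, which oxidises retinol to retinal, at 66.2 to 68.9 CPM in CDH11+/+ and 49.6 to 62.4 CPM in CDH11-/- libraries (-0.33 ± 0.076; edgeR adjusted p = 0.0776). It passed in 6 of 20 alternatives, among them without CDH11+/+ replicate 1 (0.0403) and without CDH11-/- replicate 2 (0.0225).

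No other tested member passed the threshold. Cyp3a13, a drug-oxidising enzyme, averaged 0.821 ± 0.381 and 1.70 ± 0.801 CPM (log2 fold change 1.06 ± 0.44; edgeR adjusted p = 0.305), with a CDH11-/- library at 0.757 CPM inside the CDH11+/+ range. Cyp20a1, whose substrate is not established, averaged 20.9 ± 1.56 and 22.3 ± 2.81 CPM (0.094 ± 0.10), and Cyp2s1 averaged 35.9 ± 3.88 and 32.8 ± 3.51 CPM (-0.13 ± 0.099); their edgeR adjusted p were 0.735 and 0.594. Cyp2u1, a fatty acid hydroxylase (log2 fold change 0.041 ± 0.17), Cyp46a1, the cholesterol hydroxylase of brain (0.26 ± 0.26), Cyp2r1, a vitamin D hydroxylase (-0.42 ± 0.41), and Cyp2a5 (-0.63 ± 0.55) had edgeR adjusted p from 0.667 to 0.941. None of the 3 members of steroid hormone synthesis (Cyp11a1, Cyp17a1 and Cyp21a1) was tested. Cyp11a1, the first enzyme of that pathway, had 11 of its 23 counts in CDH11+/+ replicate 1. Another gene model, Gm17322, overlaps Cyp11a1 on the same strand. Of 10 adrenal cortex genes, Hsd3b1 and Hsd3b6 were at 0 in that library and at most 0.134 CPM in the others. The 10 genes summed to 146.5 CPM in that library and to 140.7 to 150.8 CPM in the others. An adrenal part in the Cyp11a1 counts was not tested.

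The 30 untested members were split into 2 sets by their share of counts in CDH11-/- replicate 2. For 18 of them the highest library was CDH11-/- replicate 2, and 12 had over 50% of their counts there: Cyp17a1, Cyp2a12, Cyp2c29, Cyp2c50, Cyp2c54, Cyp2c67, Cyp2c70, Cyp2d10, Cyp2f2, Cyp3a11, Cyp3a25 and Cyp7a1. These 12 were picked by that share, so their sums only describe it: 0.554, 0.532, 0.0791 and 1.62 CPM in the CDH11+/+ libraries and 1.28, 26.6, 2.11 and 0.227 CPM in the CDH11-/- libraries. CDH11-/- replicate 2 held 411 counts of them, and each of the other libraries 1 to 40. Cyp7a1, the rate-limiting enzyme of bile acid synthesis in liver, had 12 counts, all in that library, and Cyp2c54 had 31 of its 32 there. The other 18 untested members (Cyp11a1, Cyp21a1, Cyp2ab1, Cyp2c38, Cyp2c55, Cyp2c65, Cyp2c68, Cyp2c69, Cyp2d11, Cyp2d34, Cyp2j7, Cyp2j8, Cyp4f14, Cyp4f15, Cyp4f37, Cyp4f39, Cyp4x1 and Cyp8b1) summed to 3.69 to 5.78 CPM in CDH11+/+ and 3.94 to 8.40 CPM in CDH11-/- libraries. Their highest sum, 8.40 CPM, was also in CDH11-/- replicate 2. Below the 50% cut, Cyp2c68 (42.4%), Cyp4f14 (41.2%), Cyp21a1 (35.3%) and Cyp4f15 (34.5%) still had large shares of their counts there. In an edgeR fit with no filter beyond 10 counts in total, 0 of the 30 passed the threshold, where 0.626% of 19818 genes did. The share of all genes at an unadjusted p under 0.05 was not counted in this fit (14.1% in the main fit). Of the 30, 4 had such a p. Cyp4f15 (1, 2, 2 and 5 counts against 11, 20, 6 and 11) had the smallest, with a log2 fold change of 1.94 ± 0.60 and an edgeR adjusted p of 0.199. At this depth 3 counts, the limit that a count of 0 allows, correspond to about 0.277 CPM in CDH11+/+ replicate 1 (counting error only).

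Most hepatocyte genes were also highest in CDH11-/- replicate 2, the library by which the 12 members were picked. Albumin (Alb) stood at 1.753, 2.81, 1.503 and 10.1 CPM in the CDH11+/+ libraries and at 0.604, 294.9, 20.4 and 5.98 CPM in the CDH11-/- libraries. Of 16 hepatocyte genes 13 were highest in CDH11-/- replicate 2, Cps1 (23.98 CPM, at most 1.32 elsewhere) and Otc (1.68 CPM, at most 0.0771 elsewhere) among them. The list's sum was 735.7, 725.4, 477.0 and 308.5 CPM in CDH11+/+ libraries and 162.3, 1019, 240.8 and 124.8 CPM in CDH11-/- libraries. Under the CDH11+/+ label the 12 members were highest in replicate 4 (1.62 CPM), where the list's sum was lowest but Alb was highest (10.1 CPM). Of the 16 genes 10 had a CDH11+/+ median over 1 CPM, so these kidneys held transcripts of several of them apart from CDH11-/- replicate 2. The part of this signal in the untested members, and in the tested members that were highest in the same library, was not tested.

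**Figure D5:**
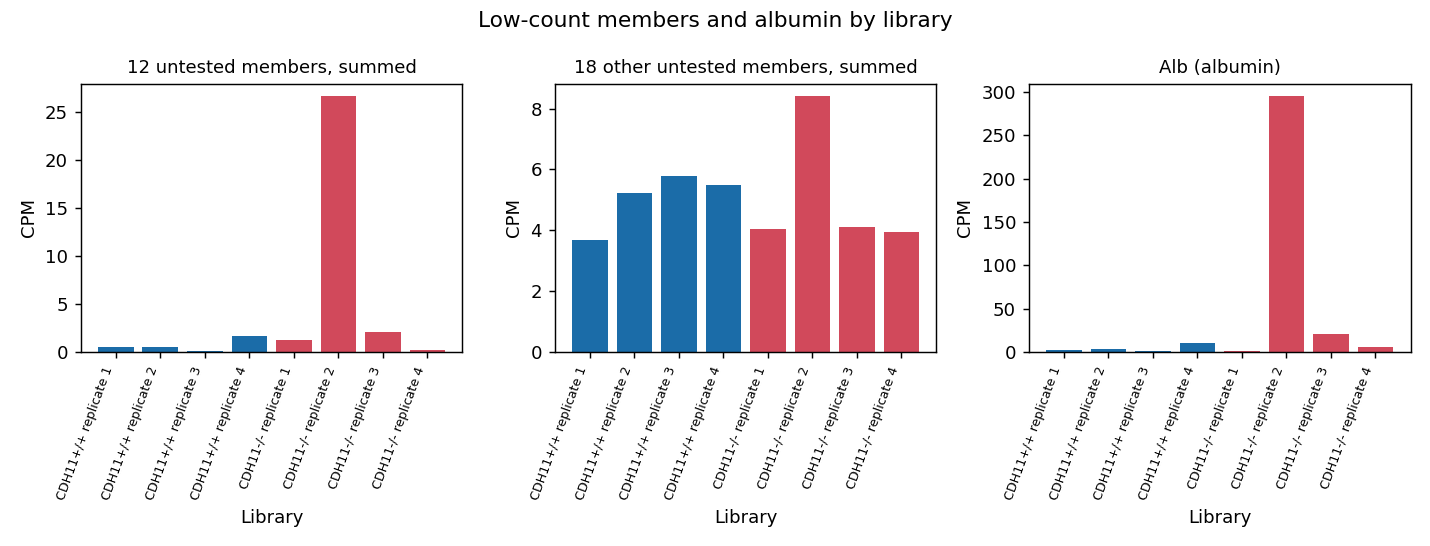
Summed CPM in each library (bars from 0) of the 12 untested members with over 50% of their counts in CDH11-/- replicate 2, of the other 18 untested members, and of Alb. The first panel reaches 26.6 CPM and the third 294.9 CPM in CDH11-/- replicate 2. The second stays between 3.69 and 8.40 CPM, with its highest bar in the same library.

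Promoter sequences (RefSeq, GRCm38.p6) were found for 45 of the 59 members, 22 of the 29 tested. The 250 bases before each start were searched on both strands for letters bound by liver and kidney factors. The letters CAAAGNCCA, a form of the HNF4 site, were in 1.70% of 32851 promoters, in 0 of the 22 tested members and in 8 of the 23 untested members matched. Of these 8, 4 were among the 9 matched members whose counts lay mostly in CDH11-/- replicate 2, and 4 among the 14 other matched untested members. Cyp2c65, Cyp2c67, Cyp2c68, Cyp2c69 and Cyp2c70 are among the 8. They are related genes of chromosome 19 and not independent observations. The TATA box letters TATAAA were in 7 tested and 11 untested members (12.4% of all promoters). The GTTAAT letters of HNF1 were in 3 and 3 (6.43%), the AGAACA half-site of steroid receptors in 2 and 6 (16.1%), and the TTGCNNAA letters of C/EBP in 4 and 6 (9.56%); motifs could overlap each other. Shown are 150 bases of a pair of untested members with the HNF4 letters, and of Cyp2j13, which has none of the 5 motifs; motifs are in capitals.
Cyp2c68 (chr19:39741102-39741251, minus strand): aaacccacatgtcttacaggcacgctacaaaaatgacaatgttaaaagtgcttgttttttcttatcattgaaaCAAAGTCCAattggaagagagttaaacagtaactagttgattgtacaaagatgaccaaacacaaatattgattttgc
Cyp8b1 (chr9:121916306-121916455, minus strand): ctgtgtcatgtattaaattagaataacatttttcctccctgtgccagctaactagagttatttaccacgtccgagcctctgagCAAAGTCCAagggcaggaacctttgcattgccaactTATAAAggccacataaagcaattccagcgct
Cyp2j13 (chr4:96077548-96077697, minus strand): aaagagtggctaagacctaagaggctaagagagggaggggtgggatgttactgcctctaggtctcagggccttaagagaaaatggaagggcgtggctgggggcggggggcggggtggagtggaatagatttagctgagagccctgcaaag
Cyp2c68 had at most 1.62 CPM in any library and Cyp8b1 at most 0.388 CPM. A match describes these letters only.

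Other genes of the P450 system were read from lists. Of 24 tested nuclear receptors and factors of P450 transcription, 1 was called, Ahr, the aryl hydrocarbon receptor known for inducing the Cyp1 genes. It rose from 18.3, 14.2, 14.1 and 16.2 CPM in the CDH11+/+ libraries to 21.7, 22.0, 22.2 and 25.1 CPM in the CDH11-/- libraries, without overlap (log2 fold change 0.54 ± 0.10; edgeR adjusted p = 0.0414). The call was lost in 10 of 20 alternatives: with the authors' normalized values or factors (adjusted p = 0.0696 to 0.0712) and without CDH11+/+ replicate 2, 3 or 4 (0.124, 0.106 and 0.136) or CDH11-/- replicate 1, 2, 3 or 4 (0.103, 0.0765, 0.100 and 0.0938). Of these 24 genes 16 were negative (median -0.16). Nr1i2, the pregnane X receptor that induces Cyp3a and Cyp2 genes, averaged 7.97 ± 1.27 and 5.79 ± 0.861 CPM (-0.46 ± 0.16; edgeR adjusted p = 0.243), and Nr1i3, the constitutive androstane receptor, averaged 0.349 and 0.459 CPM and was not tested.

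Of 10 tested electron donors 0 passed, with 8 negative (median -0.19). Por, cytochrome P450 reductase, averaged 142.5 ± 27.03 and 121.4 ± 21.7 CPM (-0.23 ± 0.17; edgeR adjusted p = 0.594). Cyb5r4, a cytochrome b5 reductase, had the smallest p of the list: 46.4 to 58.6 CPM in CDH11+/+ and 39.7 to 42.0 CPM in CDH11-/- libraries, without overlap (-0.37 ± 0.078; edgeR adjusted p = 0.0635). It passed in 5 of 20 alternatives, among them without CDH11+/+ replicate 1 (0.0351). Of 15 genes of heme synthesis and breakdown 0 passed, with 13 negative (median -0.12; 10 of 15 negative with library size alone). The smallest p there was that of Abcb6, a porphyrin transporter (-0.31 ± 0.14; edgeR adjusted p = 0.340).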

How the data were processed

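RNA of flash-frozen kidneys was made into libraries with a directional kit, per the labels' protocols. The strand rule of the counting was stated in neither labels nor headers. The authors deposited whole-number counts per Ensembl gene and a normalized signal. Per the submitters' processing notes the tools were DRAGEN and DESeq2 and the build mm10. To get the deposited signal, counts were divided by gene-specific factors: 33.1% of the factors of 14733 genes lay within 1% of their library's median. Names and coordinates came from GENCODE M21 (GRCm38, the assembly of mm10), which named all 42256 identifiers. There were 0 columns of other samples.

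Counts were tested with edgeR 4.0.16 (R 4.3.3, TMM, filterByExpr, robust quasi-likelihood) over 15852 genes, 4 libraries against 4, with Benjamini-Hochberg adjustment at 0.05. The procedure was tested on simulated data in which every gene had the same dispersion. Its performance for members that varied more was not tested. The common biological coefficient of variation was 13.5%. Nominal 95% intervals are the log2 fold change plus or minus its SE times the t quantile on 6 degrees of freedom. At 10675309 to 18539479 counts per library, a gene near 1 CPM has few counts and a large counting error. The labels say that each library is a separate mouse; they give no batch. Named members are those past the threshold or without overlap, the 20 highest per length and the smallest p in each role; of the other lists, calls, the smallest p in each pathway list, Por, Nr1i2, Nr1i3, Ephx2 and Cdh11. Other tested members and the untested ones were named after their values were seen. Members and lists were chosen with earlier results of these data known. Alternatives used DESeq2 1.42.0, limma 3.58.1 and sva 3.50.0, other scalings and filters, the authors' values, and each library left out in turn.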

Additional observations from a re-analysis of the deposited data

Results flagged for a closer look

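A sample far from the other 3 of its label was found in 20 of 116 groups examined by Dixon's test (42 members and 16 list sums under each label). Chance flags about 1 in 20 groups, but members were examined only where a library reached 1 CPM, and the 9 low-count members that follow reached it in CDH11-/- replicate 2 alone, so the number of flags cannot be set against chance. Of the 20, 10 were in CDH11-/- replicate 2, these 9 and a list sum: Cyp2f2 (4.40 CPM, others 0 to 0.470), Cyp2c29 (4.14 CPM), Cyp2a12 (3.36 CPM), Cyp2c70 (3.10 CPM), Cyp2c50 (2.59 CPM), Cyp2c54 and Cyp2d10 (2.00 CPM each), Cyp3a11 (1.62 CPM) and Cyp3a25 (1.29 CPM). The summed hepatocyte list was highest in the same library, at 1019 CPM with 124.8 to 240.8 in the others.

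In CDH11+/+ replicate 4, Cyp2c29 (0.386 CPM), Cyp2c70 (0.154 CPM) and Cyp2c50 (0.0771 CPM) were above the other CDH11+/+ libraries, all at 0; these rest on 1 to 5 counts. In CDH11+/+ replicate 1, Cyp11a1 (1.01 CPM) and Cyp4f18 (19.7 CPM) were high and Cyp39a1 (9.96 CPM) was low. Cyp11a1 reached 1 CPM in that library alone, so it too was examined only through the library in which it was flagged. Cyp4f18 was also high in CDH11-/- replicate 4 (20.5 CPM). Cyp26b1 was low in CDH11+/+ replicate 2 (2.28 CPM, others 4.59 to 5.01) and in CDH11-/- replicate 3 (4.65 CPM, others 8.93 to 9.76). The summed retinoid metabolism list was lowest in CDH11-/- replicate 3 (507.4 CPM, others 528.2 to 531.6).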

How the results depend on the processing

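The 20 alternatives changed the scaling, the filter, the tool (with its own scaling or weights), the input table or the libraries; leaving out CDH11+/+ replicate 1 and CDH11-/- replicate 2 together was chosen after seeing the data, as the library lowest for most members of its label and the library highest for most members of the other label, so it was bound to widen a fall; all others were fixed with earlier results of these data known. Over members, other named genes and counts, 540 values kept direction and side of the threshold, 33 gained it, 24 lost it, and 23 changed sign; the cause was not tested. No paired analysis was possible because the labels give no replicate numbers.

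Members called lower numbered 1 in the main fit, 3 with DESeq2, 2 with limma-voom and 3 with a surrogate variable. Without both libraries named above they numbered 5 (6.91% of all genes lower there), and the median log2 fold change was -0.31. In that setting 12 tested members lower and 2 higher did not overlap (16.8% and 13.4% of all genes). Leaving out single libraries gave 0 to 4 members called lower, beside 0.081% to 3.17% of all genes. Members called higher numbered 0, but 1 with DESeq2 and 1 with a surrogate variable. Non-overlap with single libraries left out ranged from 2 to 7 tested members lower (4.64% to 11% of all genes) and 0 to 1 higher (4.43% to 9.5%). The 7 were without CDH11+/+ replicate 1, as were the 11%. The summed level ranged from -0.81 to -0.32.

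The sign changes of log2 fold changes were these. With limma-voom Cyp2a4 was -0.062. With the authors' normalized values Cyp4f13 was 0.067 at a pseudocount of 1 and 0.066 at 10, and with their factors as offsets 0.076. With a surrogate variable Cyp27a1 was -0.0100, Cyp2j11 0.085, Cyp4f16 -0.0040 and Cyp4v3 -0.013. Without both libraries Cyp2a4 was -1.03, Cyp2d9 -0.77 and Cyp2d22 -0.076. With single libraries left out, Cyp2a4 ranged from -0.67 to 0.48, Cyp2d9 from -0.43 to 0.74, Cyp2d22 from -0.0038 to 0.16, Cyp27a1 from -0.024 to 0.081, Cyp4f16 from -0.055 to 0.11, Cyp4f18 from -0.023 to 0.27 and Cyp4v3 from -0.066 to 0.087; the lowest value of Cyp2a4, Cyp2d9 and Cyp2d22 was without CDH11-/- replicate 2.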
